A study of Mus musculus with 7 samples.

Results

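The genes described here are the 70 replication-dependent histone genes among the 46959 features of a mouse RNA table, taken as every symbol that begins with Hist1h, Hist2h, Hist3h or Hist4h. They comprise 6 genes of the linker histone H1, 20 of H2A, 19 of H2B, 12 of H3 and 13 of H4. Of these, 56 belong to the Hist1 group on chromosome 13, 10 to Hist2 on chromosome 3, 3 to Hist3 on chromosome 11 and 1 to Hist4 on chromosome 6. Outside Hist1h2al, which lies apart at 51202727 to 51203065, the Hist1 genes span 21715763 to 23934851 of chromosome 13 (GRCm38). RNA came from purified splenic B cells cultured for 4 days with lipopolysaccharide (LPS, a bacterial activator of B cells, 1 µg/mL) and interleukin 4 (IL-4, a cytokine that acts on activated B cells, 20 ng/mL). The groups were wild type (n = 3) and cKO MED1 (n = 4), the latter whose label names Med1, part of the Mediator complex that joins enhancer-bound factors to RNA polymerase II. Both groups had the same stimulation. The strain, the age, the Cre driver and whether replicates were separate mice are details not given in the sources used here. The p-values therefore describe only how these libraries vary, which may be technical. Ribosomal RNA was depleted and no poly(A) selection was made, so that transcripts without a poly(A) tail could be counted.

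Replication-dependent histone genes supply the core histones H2A, H2B, H3 and H4, around which DNA is wrapped, and the linker histone H1, which binds where DNA enters and leaves the nucleosome. Their transcripts accumulate while DNA is replicated and are removed when replication stops. Most lack introns and a poly(A) tail and end after a conserved stem-loop, which is bound by the stem-loop binding protein (Slbp) and cut with the help of the U7 small nuclear RNA particle. Activated B cells divide rapidly, and histone supply then has to keep pace with DNA synthesis.

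The 3′ stem-loop is shown first, because it sets these transcripts apart from other mRNAs. Of the 70 genes, 46 (65.7%) held a match to the consensus histone stem-loop in a GENCODE M21 transcript, against 59 of all 55450 genes (0.106%). Some annotated transcripts end near the coding sequence, such as Hist1h2bn at 381 bases and Hist1h4k at 312. A gene without a match may therefore still have a stem-loop. The same 16 bases occurred in 26 genes of H1, H2A, H2B and H3 but in no H4 gene, and 7 H4 genes shared another form. In the lines below the 16 bases of the stem-loop are in capitals and 5 flanking bases on each side are in lower case, 5′ to 3′ on the transcript strand, written with T. Hist1h1c, Hist1h2ag, Hist1h2bj and Hist1h3b carry the common form, Hist1h2bk the form with A in place of C in the loop, Hist1h4d the common H4 form and Hist1h4b a form found in 2 H4 genes. The last line is H2afx, which encodes the variant H2A.X, lies outside the 70 genes and is known to give transcripts of both kinds, with the stem-loop end and with a poly(A) tail.
Hist1h1c: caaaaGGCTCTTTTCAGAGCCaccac
Hist1h2ag: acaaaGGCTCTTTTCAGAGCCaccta
Hist1h2bj: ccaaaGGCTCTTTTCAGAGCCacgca
Hist1h2bk: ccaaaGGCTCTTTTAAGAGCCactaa
Hist1h3b: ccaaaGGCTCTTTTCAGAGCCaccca
Hist1h4d: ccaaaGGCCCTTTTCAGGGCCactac
Hist1h4b: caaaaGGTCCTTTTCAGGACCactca
H2afx: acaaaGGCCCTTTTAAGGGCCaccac

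Promoters are shown for 1 or 2 genes each of H1, H2B, H3 and H4, because the classes differ in the short motifs they hold. No H2A promoter is printed. RefSeq windows (GRCm38.p6, 250 bases before to 50 after the start) were matched for 62 of the 70 genes and searched for TATAAA on the sense strand and for CCAAT, the octamer ATTTGCAT and AAACACA on both strands. None of these motifs contains another. CCAAT was present in 53 of the 62 (85.5%), against 37.9% of all 27025 promoters, and it was found in every matched H1, H2A, H2B and H3 promoter but in 3 of 12 H4 promoters. TATAAA was present in 48.4% against 8.88%. The octamer was held by 7 of 18 H2A and 6 of 16 H2B promoters and by none of the other classes (13 of all 62 against 1.75%). AAACACA was held by 5 of 6 H1 promoters (14.5% of all 62 against 7.14%). A match describes the letters in the window and does not show that a factor binds there. The 150 bases upstream of the start follow, 5′ to 3′ on the gene's strand, with these motifs in capitals. Coordinates in GRCm38 are chr13:23763518-23763667 (+) for Hist1h1a, chr13:23738657-23738806 (+) for Hist1h1c, chr13:22035671-22035820 (+) for Hist1h2bk, chr13:23752195-23752344 (+) for Hist1h3b and chr13:21750554-21750703 (-) for Hist1h4k.
Hist1h1a: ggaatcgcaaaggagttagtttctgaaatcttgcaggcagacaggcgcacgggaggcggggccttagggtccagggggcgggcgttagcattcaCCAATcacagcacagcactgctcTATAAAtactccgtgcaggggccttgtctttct
Hist1h1c: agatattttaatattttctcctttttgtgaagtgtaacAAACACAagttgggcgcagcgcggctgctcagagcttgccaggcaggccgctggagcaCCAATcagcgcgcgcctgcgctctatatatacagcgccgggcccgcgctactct
Hist1h2bk: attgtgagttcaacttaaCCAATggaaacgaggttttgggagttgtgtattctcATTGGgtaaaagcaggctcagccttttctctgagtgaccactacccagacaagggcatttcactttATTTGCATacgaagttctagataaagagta
Hist1h3b: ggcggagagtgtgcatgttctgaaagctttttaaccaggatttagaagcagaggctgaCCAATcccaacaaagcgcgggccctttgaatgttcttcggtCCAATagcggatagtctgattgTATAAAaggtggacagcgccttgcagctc
Hist1h4k: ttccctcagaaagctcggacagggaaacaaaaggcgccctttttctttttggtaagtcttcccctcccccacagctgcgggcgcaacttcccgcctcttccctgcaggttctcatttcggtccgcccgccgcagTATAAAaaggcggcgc

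Med1 was first checked against the labels. It had 4755, 4173 and 4210.1 normalised reads in the wild-type libraries and 2585, 2172, 2249 and 2436 in the cKO MED1 libraries, a mean of 53.9% of wild type (-0.89 ± 0.09 SE in log2 fold change, adjusted p = 0.000174 by limma). Here and below, values are given in the order of replicates 1 to 3 of wild type and 1 to 4 of cKO MED1. Normalised reads are recovered reads scaled to a common library of 48019763 reads, and fold changes are cKO MED1 minus wild type on the log2(normalised reads + 1) scale, with the threshold at an adjusted p of 0.05. Libraries held 31937372 to 61149274 reads with the 3 wild-type libraries the 3 deepest. By Ddx3y reads, all wild-type libraries and cKO MED1 replicate 3 were male and cKO MED1 replicates 1, 2 and 4 were female. Of 8 B cell markers, 5 fell, with summed normalised reads of 173081 to 187191 in wild type and 124544 to 139366 in cKO MED1. The other 7 marker lists summed to at most 3339 reads in a wild-type library and 4634 in a cKO MED1 library, both for the dendritic cell list, in which Flt3 held most of the reads. Of the 39 markers tested in these 7 lists, 6 rose (Flt3, Clec9a, Hba-a1, Slc4a1, Mpo and Vwf) and 4 fell (Lck, Gzmb, Hbb-bt and Pecam1). In log2 fold change Flt3 rose by 0.65, while Lck of T cells fell by 0.49 and Gzmb by 1.68 (limma adjusted p = 0.0104, 0.0185 and 0.0326). The median T cell marker was at 0.40 in log2 fold change. Relative to the wild-type mean it was at -0.34, 0.30, 0.95 and 1.37 in the cKO MED1 libraries. Summed T cell reads were lower, at 1458 to 1927 in wild type and 1201 to 1420 in cKO MED1. Medians were positive for macrophage and monocyte (0.57), dendritic cell (1.11), erythroid (1.37) and stromal and endothelial markers (1.10). The natural killer cell median was -0.38. The neutrophil gene Mpo had 2.07 to 8.16 normalised reads in wild-type libraries and 12.2 to 42.1 in cKO MED1 (limma adjusted p = 0.0274). No listed marker was at 0 in every library, and the part of other cells in the results was not tested.

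Within cKO MED1, replicates 1 and 4 stood apart from replicates 2 and 3. Both lay below both of the others in 63 of the 67 histone genes tested, and they were also the libraries with the fewest reads. The share of all genes with this order was not counted, so the order is not shown to be particular to histone genes. The 70 genes took 1.08, 0.910 and 0.83% of all reads in the wild-type libraries and 0.539, 0.798, 0.659 and 0.340% in the cKO MED1 libraries. Every cKO MED1 library was below every wild-type library, although replicate 2 of cKO MED1 lay close to replicate 3 of wild type. On average this was 0.941 ± 0.13% (SD, n = 3) against 0.584 ± 0.194% (SD, n = 4). Ranked by this share, the 7 libraries stood in the same order as ranked by their total reads. Depth and genotype do not overlap here, so their parts in the share cannot be told apart. In bulk RNA, fewer cells in S phase and less histone RNA per cell also cannot be told apart.

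**Figure D1:**
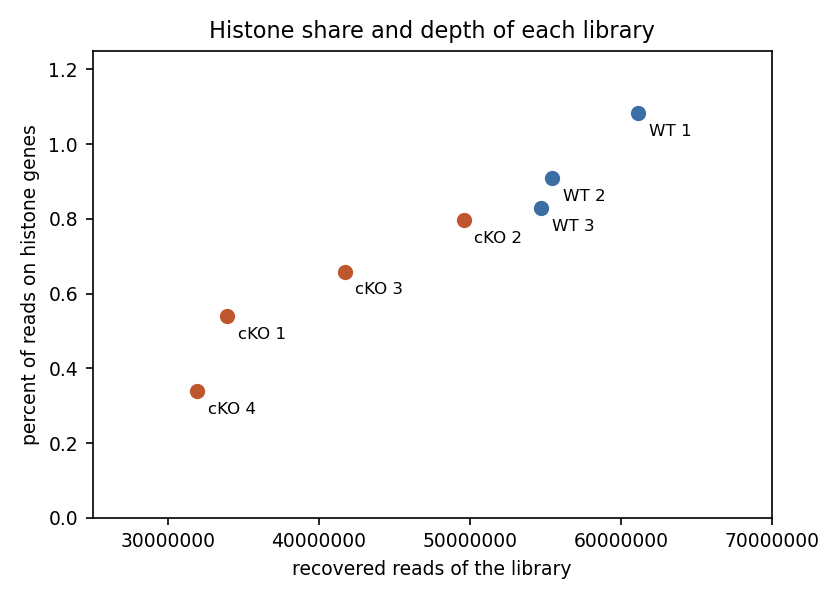
Percent of reads on the 70 histone genes (y axis) against the recovered reads of each library (x axis), 1 point per library, wild type in blue and cKO MED1 in orange. The share falls from 1.08% in the deepest library, wild-type replicate 1, to 0.340% in the shallowest, cKO MED1 replicate 4.

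After scaling between libraries, 25 of the 67 histone genes tested fell and none rose (37.3% lower, limma). Over all 18062 genes tested, 14.6% fell and 13.4% rose. Well-expressed genes fell more often in these data. Of the 6021 genes in the top tercile of mean reads, 27.8% fell and 5.6% rose, and of the 54 histone genes in that tercile 21 fell (38.9%). Of 50 other protein-coding genes with 1 exon in that tercile, 19 fell and 7 rose (median log2 fold change -0.20). Their share of genes lower was thus near that of the histone genes. Of 81 other protein-coding genes there with an exonic length under 1 kb, 11 fell and 8 rose (median -0.0033). The log2 fold change was negative in 66 of the 67 genes, with a median of -0.59 against 0.04 over all genes tested and -0.15 over the top tercile. In 18 of the 67 genes (26.9%) every cKO MED1 library lay below every wild-type library, against 19.8% of all genes tested and 36.6% of the top tercile. Not tested for want of reads were Hist2h2aa1, Hist2h3c1 and Hist1h2aa, which had at most 4.90 normalised reads in any library.

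The count of genes called rested on few libraries. Without cKO MED1 replicates 1 and 4, 10 genes fell (14.9%), all of them among the 25, with a median of -0.22, and 1 gene, Hist1h1d, rose. In that fit 11.4% of all genes fell and 7.27% rose, and 22.4% of the top tercile fell. The split was added after seeing the data, and replicates 1 and 4 were the lowest for most histone genes. A weaker histone difference was therefore fixed by the choice of libraries, and no conclusion is drawn from these shares. The same limit holds for the single genes and class counts given for this fit below. They are descriptions and rank no gene or class. Without cKO MED1 replicates 3 and 4, 10 genes also fell, with a median of -0.45, beside 7.34% of all genes. Leaving out 1 library at a time gave 11 genes lower without cKO MED1 replicate 1 (17.5% of all genes), 43 without replicate 2 (12.8%), 24 without replicate 3 (12.0%) and 6 without replicate 4 (8.9%). Without wild-type replicates 1, 2 and 3 the counts were 4, 14 and 39, beside 5.25, 10.9 and 13.1% of all genes. With sex as a covariate, the genotype difference rested on cKO MED1 replicate 3 against wild type, since the other cKO MED1 libraries were female. In that fit limma called 0 genes lower at the adjusted threshold and 1 at an unadjusted p under 0.05, and the median was -0.26. Calls over all genes dropped to 228, with 0.659% of genes lower. The fit with sex therefore describes 1 cKO MED1 library, and cannot separate sex from genotype in the others. The edgeR test on recovered reads called 20 genes lower (14.8% of all genes) and DESeq2 called 24 (16.8%). Scaling by total reads, by TMM factors from all genes and by the authors' factors moved the median of all genes to -0.20, -0.12 and -0.10 and gave 61, 50 and 49 histone genes lower, beside 24.2, 24.2 and 19.8% of all genes. Relative to the median of all genes, the histone median was -0.63 under each of these and under the main scaling. A change of scaling shifts all genes by nearly the same amount, so this difference could not vary between scalings.

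**Figure D2:**
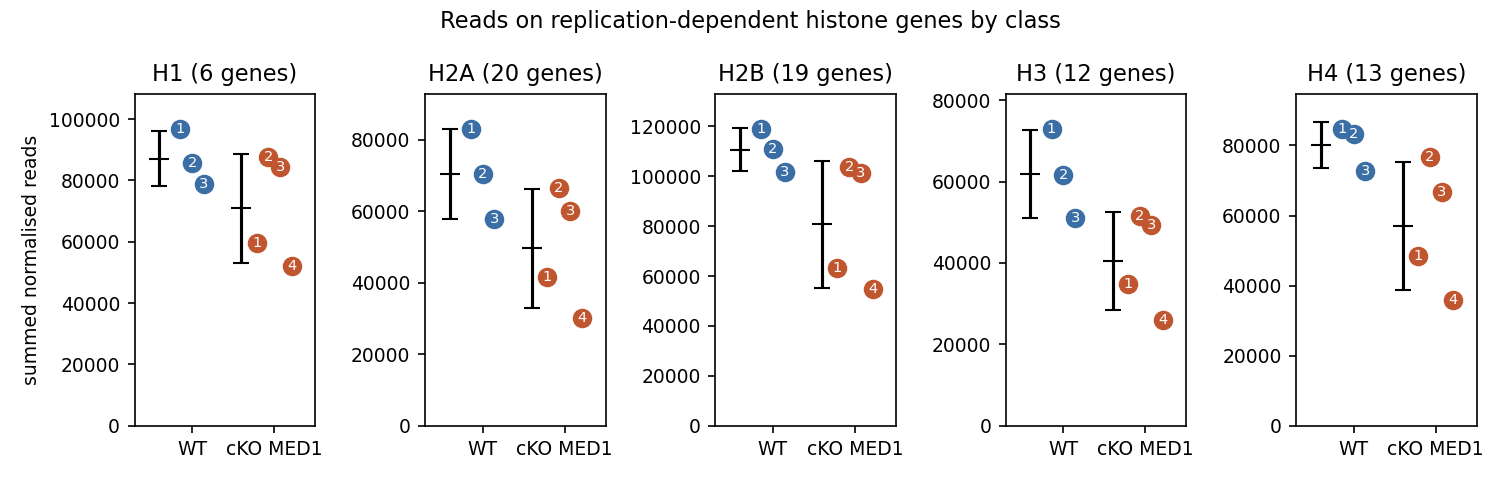
Summed normalised reads (y axis) of the genes of each histone class, 1 panel per class with its own scale from 0. Points are libraries labelled by replicate number (wild type blue, cKO MED1 orange), horizontal bars are means and error bars are SD (n = 3 and 4). In each class cKO MED1 replicates 1 and 4 lie below all wild-type libraries, and replicates 2 and 3 lie near wild-type replicate 3.

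All 5 classes were lower on average, H3 the most and H1 the least. Summed normalised reads of H3 genes were 72899, 61613 and 51119.6 in wild type and 34900.3, 51471, 49293 and 26054 in cKO MED1, or 65.3% of the wild-type mean. The corresponding percentages were 70.5% for H2A, 71.0% for H4, 73.0% for H2B and 81.4% for H1. For H1 the sums were 96747, 85615 and 78988 in wild type and 59681, 87538, 84515 and 51924 in cKO MED1, where replicates 2 and 3 lay within the wild-type range. As a share of histone reads, H1 was higher in all 4 cKO MED1 libraries (24.1, 22.7, 23.3 and 26.1%) than in the 3 wild-type libraries (21.2, 20.8 and 21.8%). H3 took 15.98, 15.0 and 14.1% in wild type and 14.1, 13.3, 13.6 and 13.1% in cKO MED1, with the highest cKO MED1 value just under the lowest wild-type value. The shares of H2A, H2B and H4 overlapped between the groups.

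**Figure D3:**
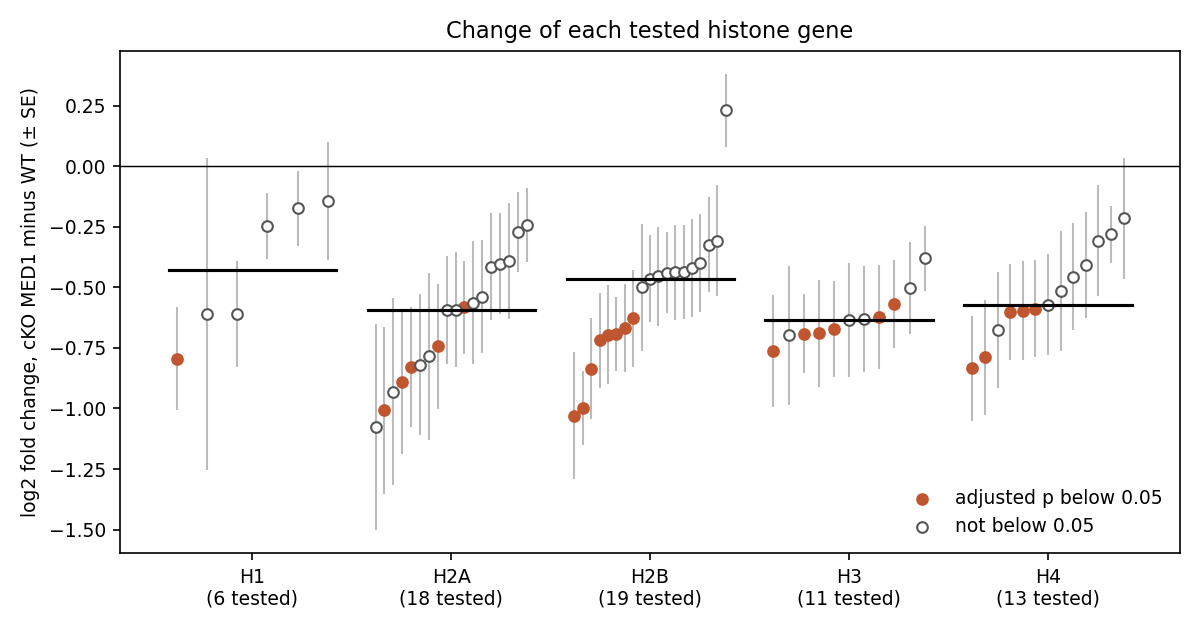
Log2 fold change, cKO MED1 minus wild type (y axis, error bars ± SE from limma), of each of the 67 histone genes tested, ordered within its class; black lines are class medians. Filled points passed an adjusted p of 0.05 (25 genes, all negative), and the single positive value is Hist2h2be at 0.23 (-0.01 when scaled by total reads).

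Among the 6 linker histone genes, Hist1h1a fell (16.7%, beside 14.6% of all genes) and the other 5 did not pass. Hist1h1a (chromosome 13, 23763666 to 23764406), which encodes the subtype H1.1, had 17991, 16515 and 12743 normalised reads in wild-type libraries and 7229, 11456, 12127 and 6501 in cKO MED1 (-0.79 ± 0.21 SE in log2 fold change, adjusted p = 0.0216 by limma). All cKO MED1 libraries lay below all wild-type libraries, replicates 1 and 4 by more than replicates 2 and 3. Without replicates 1 and 4 its log2 fold change was -0.41 (limma adjusted p = 0.0593). Hist1h1b, which encodes H1.5, had 13762, 10888 and 10902 normalised reads in wild-type libraries and 6004, 9798, 10919 and 5525 in cKO MED1 (-0.61 ± 0.22 SE in log2 fold change, adjusted p = 0.0555 by limma), and cKO MED1 replicate 3 was level with wild-type replicates 2 and 3.

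Hist1h1c, Hist1h1d and Hist1h1e, which encode H1.2, H1.3 and H1.4, had smaller differences. Hist1h1c had 24999, 22532 and 21535 normalised reads in wild-type libraries and 19129, 25613, 22363 and 15717 in cKO MED1 (-0.17 in log2 fold change, adjusted p = 0.406 by limma). Hist1h1d had 18876, 17156 and 15297 normalised reads in wild-type libraries and 10605, 21559, 21814 and 11405 in cKO MED1. Its cKO MED1 replicates 2 and 3 were above all wild-type libraries and replicates 1 and 4 below them, and the log2 fold change of -0.14 (± 0.24 SE, adjusted p = 0.675 by limma) became 0.34 (limma adjusted p = 0.0464) without replicates 1 and 4. Hist1h1e had a log2 fold change of -0.25 (limma adjusted p = 0.182). It overlaps Hist1h2be in annotation, and the assignment of reads shared by overlapping genes was not given in the sources used here. Hist1h1t, the testis-specific H1, had at most 12.8 normalised reads in any library.

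The mix of H1 subtypes differed between the groups in the share of Hist1h1a, which took 18.6, 19.3 and 16.1% of H1 reads in the wild-type libraries and 12.1, 13.1, 14.3 and 12.5% in cKO MED1, with no overlap. Log2 ratios between the 5 somatic H1 genes were compared for all 10 pairs by a two-sided exact permutation test over the 35 assignments of the libraries, whose smallest possible p is 0.0286. Hist1h1a relative to Hist1h1d went from -0.13 ± 0.12 (SD, n = 3) to -0.78 ± 0.16 (SD, n = 4), a difference of -0.65 (exact permutation p = 0.0286, adjusted over the 10 pairs 0.143). For Hist1h1b relative to Hist1h1d the difference was -0.47, with the same p-values. For Hist1h1a relative to Hist1h1c it was -0.62 (exact permutation p = 0.0571, adjusted 0.171), and no pair passed after adjustment.

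**Figure D4:**
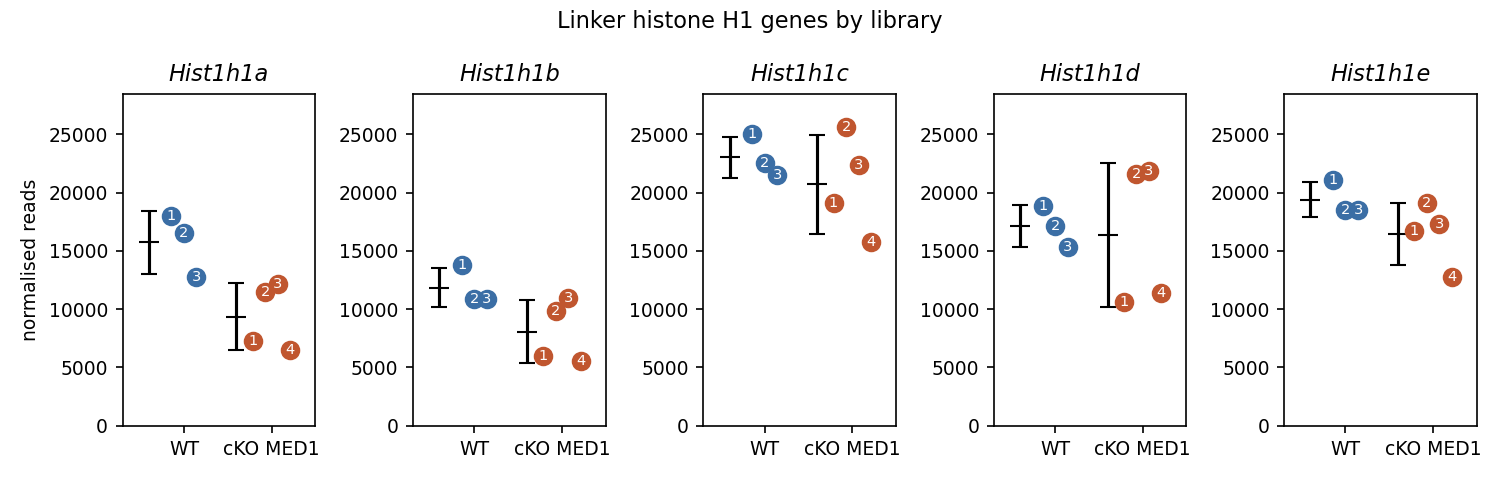
Normalised reads (y axis, same scale in all panels) of the 5 somatic H1 genes in each library, labelled by replicate number, with group means (horizontal bars) and SD (error bars; n = 3 wild type, n = 4 cKO MED1). Hist1h1a shows no overlap between groups, while for Hist1h1d cKO MED1 replicates 2 and 3 lie above wild type.

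Of the 18 H2A genes tested, 5 fell (27.8%), with a class median of -0.59. This share equals that of the top tercile of all genes (27.8%), beside 14.6% of all genes tested. Hist1h2ak (chromosome 13, 21753435 to 21753827) had 7609, 5901 and 5629 normalised reads in wild-type libraries and 4286, 5434, 4833 and 2831 in cKO MED1 (-0.58 ± 0.19 SE in log2 fold change, adjusted p = 0.0429 by limma). Its cKO MED1 values all lay below wild type. Every 150-base window of its transcript was found in no other gene's transcript in the same direction. Gm44454 overlaps it on the other strand, and the use of strand in counting is not given. In Hist1h2ah, Hist1h2ag, Hist1h2an and Hist1h2ae the groups overlapped, since cKO MED1 replicate 2 exceeded wild-type replicate 3. Hist1h2ah had 1460.3, 1152 and 779 normalised reads in wild-type libraries and 519, 846, 820.5 and 335 in cKO MED1 (-0.89 ± 0.30 SE in log2 fold change, adjusted p = 0.0441 by limma). Hist1h2ag fell by 0.83 and Hist1h2an by 0.74 in log2 fold change (adjusted p by limma 0.0315 and 0.0493). Only 15.2%, 34.5% and 27.5% of the windows of Hist1h2ah, Hist1h2ag and Hist1h2an occurred in no other gene, so their reads may be split among near-identical copies. None of the 5 passed without cKO MED1 replicates 1 and 4.

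Per kilobase of annotated exon, Hist2h2aa2 was the highest of the H2A genes, at 28740.2 normalised reads per kb over the 7 libraries. It had 19133, 17818 and 14529 normalised reads in wild-type libraries and 11403, 18443, 16813 and 8085 in cKO MED1 (-0.39 ± 0.24 SE in log2 fold change, adjusted p = 0.226 by limma). None of its windows was unique, because Hist2h2aa1 is a near-identical copy, and that gene was listed with at most 1.95 normalised reads, so the values of Hist2h2aa2 cannot be assigned to 1 of the copies. Hist1h2ap followed at 23254 per kb (-0.59 ± 0.24 SE in log2 fold change, adjusted p = 0.0804 by limma). Levels per kb depend on the annotated transcript, which ends near the coding sequence in some genes and runs past the stem-loop in others.

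H2B held the 2 named genes with the smallest adjusted p of all 67. Of 19 tested genes 8 fell (42.1%, beside 14.6% of all genes and 27.8% of the top tercile), with a class median of -0.46. In all 8 the cKO MED1 libraries lay below all wild-type libraries. This was so for 19.8% of all genes and for 36.6% of the top tercile, near the 42.1% here. Hist3h2bb-ps, annotated as a pseudogene (chromosome 11, 58954048 to 58954512), had 394, 405 and 364 normalised reads in wild-type libraries and 194, 192, 246 and 152 in cKO MED1 (-0.999 ± 0.15 SE in log2 fold change, adjusted p = 0.00192 by limma). Its neighbour Hist3h2ba (chromosome 11, 58948920 to 58949533) had 521, 508 and 449.5 normalised reads in wild-type libraries and 294, 352, 358 and 231 in cKO MED1 (-0.69 ± 0.15 SE in log2 fold change, adjusted p = 0.01002 by limma). In both, cKO MED1 replicates 2 and 3 were below every wild-type library.

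Hist1h2bj (chromosome 13, 22043214 to 22043676) had 9548, 7986 and 7499 normalised reads in wild-type libraries and 4167, 6029, 6081 and 3064 in cKO MED1 (-0.84 ± 0.21 SE in log2 fold change, adjusted p = 0.0166 by limma). Again replicates 1 and 4 were lowest and replicates 2 and 3 lay between them and wild type. Hist1h2bk, whose promoter holds the octamer shown above, fell by 0.63 in log2 fold change (adjusted p by limma 0.0371). Without cKO MED1 replicates 1 and 4, 7 of the 8 still fell: Hist3h2bb-ps, Hist3h2ba, Hist1h2bj and, chosen after their values were seen, Hist1h2ba, Hist1h2bh, Hist1h2bl and Hist1h2bm. Hist1h2ba, the testis-type H2B, had 776, 694 and 606 normalised reads in wild-type libraries and 331, 487, 428 and 187 in cKO MED1 (-1.03 ± 0.26 SE in log2 fold change, adjusted p = 0.0174 by limma).

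The 3 most abundant H2B genes per kb, Hist2h2bb, Hist1h2bn and Hist1h2bb, did not pass, while Hist1h2bk, the next, did. Hist2h2bb, at 25297 normalised reads per kb, had 11996, 11628 and 9967 normalised reads in wild-type libraries and 5194, 10739, 12259 and 5686 in cKO MED1 (-0.50 ± 0.26 SE in log2 fold change, adjusted p = 0.164 by limma), with cKO MED1 replicate 3 above all wild-type libraries. Hist1h2bb had 12332, 12606 and 11251 normalised reads in wild-type libraries and 7546, 13666, 13204 and 6598 in cKO MED1 (-0.31 ± 0.23 SE in log2 fold change, adjusted p = 0.317 by limma). Here cKO MED1 replicates 2 and 3 exceeded every wild-type library and replicates 1 and 4 were far below. Hist1h2bn had a log2 fold change of -0.45 (limma adjusted p = 0.111).

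Of the 11 H3 genes tested, 6 fell (54.5%, beside 14.6% of all genes and 27.8% of the top tercile), the largest share of any class in the main fit. In 4 of the 11 (36.4%) every cKO MED1 library lay below every wild-type library, near the 36.6% of the top tercile. Without cKO MED1 replicates 1 and 4, 2 of 11 fell, against 7 of 19 H2B genes. All 11 reached an unadjusted limma p under 0.05, as did 47 of the 67 histone genes. The share of all genes under that unadjusted threshold was not counted. Their log2 fold changes lay between -0.76 and -0.38. Hist1h3d (chromosome 13, 23575763 to 23577011) had 3508, 2983 and 2889 normalised reads in wild-type libraries and 1781, 2363, 2322 and 1413 in cKO MED1 (-0.69 ± 0.16 SE in log2 fold change, adjusted p = 0.0133 by limma). Hist1h3b (chromosome 13, 23752267 to 23752886) had 8692, 7467 and 7028 normalised reads in wild-type libraries and 4461, 6288, 6023 and 3216 in cKO MED1 (-0.67 ± 0.20 SE in log2 fold change, adjusted p = 0.0291 by limma). In both genes all cKO MED1 libraries were below all wild-type libraries, and both still fell without cKO MED1 replicates 1 and 4. Hist1h3h, the highest H3 gene per kb at 20021 normalised reads, fell by 0.69 (limma adjusted p = 0.0389), but only 9.54% of its windows were unique. Hist1h3a fell by 0.76 and Hist1h3e by 0.57 (limma adjusted p = 0.0331 and 0.0383). These 3 genes did not pass without replicates 1 and 4. Hist2h3c1 had 0 reads in all libraries and no unique window.

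Of the 13 H4 genes, which encode the same protein from separate loci, 5 fell (38.5%), with a class median of -0.57. Beside this, 14.6% of all genes and 27.8% of the top tercile fell. Hist1h4b (chromosome 13, 23757013 to 23757409), whose stem-loop differs from that of most H4 genes, had 4169.6, 3358 and 3293 normalised reads in wild-type libraries and 1819.8, 2785, 2496 and 1290.2 in cKO MED1 (-0.83 ± 0.22 SE in log2 fold change, adjusted p = 0.0191 by limma). It was the only H4 gene that still fell without cKO MED1 replicates 1 and 4. Hist1h4m had 10974, 11663 and 8995 normalised reads in wild-type libraries and 4772, 8896, 7923 and 4032 in cKO MED1 (-0.79 ± 0.24 SE in log2 fold change, adjusted p = 0.0322 by limma), with 14.2% of its windows unique. Hist1h4d and Hist1h4k fell by 0.60 and 0.59 (limma adjusted p = 0.0427 and 0.0475). In these 4 genes (30.8% of the 13, beside 36.6% of the top tercile) the groups did not overlap. Per kb, Hist1h4k was the highest of the 70 genes at 29125 normalised reads. Hist1h4f, which did not pass, had 6487, 6340.4 and 6020.1 normalised reads in wild-type libraries and 3996, 6921, 5863 and 3098 in cKO MED1 (-0.41 ± 0.22 SE in log2 fold change, adjusted p = 0.172 by limma) and cKO MED1 replicate 2 was the highest of all 7 libraries.

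By location, 23 of 55 tested Hist1 genes fell (41.8%, median log2 fold change -0.61), near the 37.3% of all 67. In Hist2 none of 8 fell by limma (median -0.40, 2 at an unadjusted p under 0.05), and in Hist3 2 of 3 fell. Hist1h1c, Hist1h2bc, Hist2h2be, Hist3h2a and Hist4h4 are known to give polyadenylated transcripts in cells that do not divide. None of these 5 passed, and their median was -0.24. Hist2h2be, the only histone gene with a positive value, which was -0.01 under scaling by total reads, had 218, 235 and 209 normalised reads in wild-type libraries and 259, 226, 227 and 339 in cKO MED1 (0.23 ± 0.15 SE in log2 fold change, adjusted p = 0.255 by limma), cKO MED1 replicate 4 being the highest. That library was the lowest for Hist1h2bc, which had 5595, 4908 and 4739 normalised reads in wild-type libraries and 3245, 5062, 4646 and 2566 in cKO MED1 (-0.44 ± 0.20 SE in log2 fold change, adjusted p = 0.110 by limma). Hist4h4 had a log2 fold change of -0.51 and Hist3h2a of -0.24 (limma adjusted p = 0.131 and 0.243).

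The genes were also split by sequence features, as a description. Of genes with a stem-loop match 16 of 44 tested fell (median -0.59), and of those without one 9 of 23 (median -0.58). The latter include genes whose annotated transcript ends near the coding sequence, so this split does not separate genes with and without a stem-loop. Where at least 50% of windows were unique, 18 of 47 fell (median -0.58), against 7 of 20 with fewer (median -0.61). Among genes whose exons overlap no other gene 19 of 44 fell (median -0.60), and among the rest 6 of 23 (median -0.58). With TATAAA in the promoter 13 of 28 fell (median -0.61), and without it 10 of 31 (median -0.56). With the octamer 5 of 12 fell (median -0.61) and without it 18 of 47 (median -0.59).

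Of 22 genes of histone pre-mRNA processing, 16 fell (72.7%) and none rose by limma, with a median of -0.38. Here and for the lists that follow, the share over all genes is the 14.6% given above, and that over the top tercile 27.8%. Snrpf, a core protein of small nuclear RNA particles, fell by 0.84, Casp8ap2, needed for histone gene expression in S phase, by 0.64, the cap-binding subunit Ncbp1 by 0.53 and the cleavage factor Cstf2t by 0.43 (limma adjusted p = 0.00155, 0.00323, 0.00547 and 0.00802). Slbp, named for its role and chosen after its value was seen, had 3827, 3154 and 3197 normalised reads in wild-type libraries and 2556, 2719.5, 2739 and 2315 in cKO MED1 (-0.39 ± 0.10 SE in log2 fold change, adjusted p = 0.0176 by limma). All cKO MED1 libraries were below wild type, replicates 1 and 4 the lowest. Without those replicates Slbp did not pass (-0.31, limma adjusted p = 0.0504), 11 of the 22 fell and Snrpg rose. Of 17 genes of histone mRNA decay 5 fell (29.4%), a share near that of the top tercile, among them Lsm2 (-0.65), the helicase Upf1 (-0.52), Lsm4 (-0.45) and Exosc10 (-0.37; limma adjusted p = 0.00517, 0.00675, 0.0198 and 0.0238), with a list median of -0.19.

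Among the replication-independent histone variants, which are made throughout the cell cycle, 2 of 9 tested fell (22.2%), with a median of -0.18. H2afx, whose stem-loop is shown above, had 8013, 6695 and 5443 normalised reads in wild-type libraries and 3867, 5634, 5172 and 2537 in cKO MED1 (-0.69 ± 0.23 SE in log2 fold change, adjusted p = 0.0466 by limma). Its cKO MED1 replicates 1 and 4 were lowest, an order not particular to it. H2afz had 3968, 5971, 6627 and 4782 in cKO MED1, and replicates 1 and 4 were also lowest in H2afj and H3f3a. H2afy, which encodes macroH2A1, fell by 0.27 (limma adjusted p = 0.0449). There cKO MED1 replicate 1 was the highest of its group, at 5075. H3f3b, 1 of the genes of the variant H3.3, had a log2 fold change of -0.28 and H2afv, a gene of an H2A.Z form, of 0.20 (limma adjusted p = 0.0518 and 0.140). H2afv was at -0.04 under scaling by total reads. Without cKO MED1 replicates 1 and 4 neither H2afx nor H2afy passed, and H2afv rose (0.32, limma adjusted p = 0.0432). Of 24 histone chaperones and related carriers 16 fell (66.7%), with a median of -0.42, and 13 fell without those replicates. Daxx, a chaperone of H3.3, fell by 0.67, Nasp, which binds H3 and H4, by 0.56, Supt16 of the FACT complex by 0.53 and the histone acetyltransferase Hat1 by 0.52 (limma adjusted p = 0.00630, 0.00635, 0.00962 and 0.00745).

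Of 22 S phase genes 18 fell (81.8%), with a median of -0.58, and 1, Tk1, rose by 0.31 (limma adjusted p = 0.0348). Mcm5, Mcm2, Mcm3 and Mcm7 of the replicative helicase fell by 0.82, 0.81, 0.73 and 0.64 (limma adjusted p = 0.00443, 0.00399, 0.00583 and 0.00671). Relative to the wild-type mean, the median S phase gene was at -0.52, -0.49, -0.41 and -0.85 on the log2 scale in the cKO MED1 libraries, and the median histone gene at -0.78, -0.14, -0.26 and -1.14. In wild type they were at 0.24, -0.11 and -0.11 and 0.15, 0.01 and -0.17. The median S phase gene was thus below the wild-type range in all 4 cKO MED1 libraries, whereas the median histone gene was within it in replicate 2, just below it in replicate 3 and far below it in replicates 1 and 4. Without replicates 1 and 4, 12 S phase genes fell and Tk1 rose. Of the octamer factors, Pou2f1 rose by 0.30 (limma adjusted p = 0.0407), while Pou2f2 and the B cell coactivator Pou2af1 had log2 fold changes of 0.07 and 0.17 (limma adjusted p = 0.540 and 0.305), both negative under scaling by total reads (-0.17 and -0.07). Pou2f1 did not pass without replicates 1 and 4 (0.19, limma adjusted p = 0.162).

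**Figure D5:**
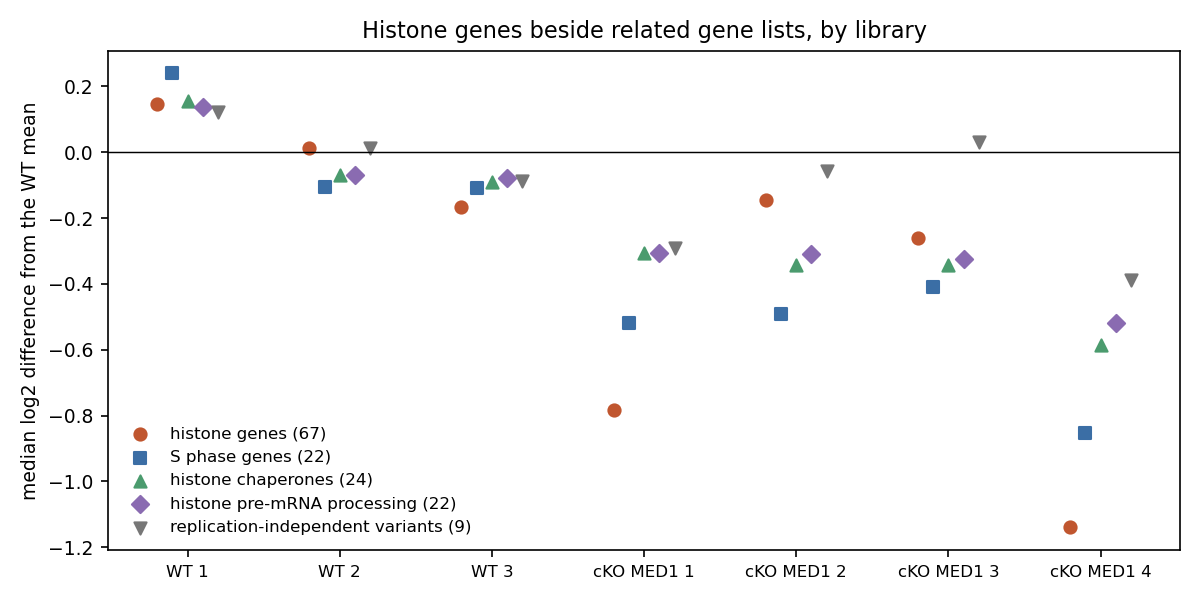
Median log2 difference from the wild-type mean (y axis) over the tested genes of each list, by library (x axis); the number of genes is in the legend. Histone genes (circles) span -0.14 to -1.14 over the cKO MED1 libraries, S phase genes (squares) -0.41 to -0.85.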

How the data were processed

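RNA was measured in 7 libraries, 3 wild type and 4 cKO MED1, with a stranded total RNA kit and paired reads per the labels' protocols. The authors deposited 1 table whose values are a signal, namely reads divided by a size factor of each library. Judged from the values, 100% were whole reads times a constant of the library (tolerance 1e-06), and these whole reads were recovered. The submitters' processing notes name GRCm38 (mm10), DESeq2, R 3.4, featureCounts, Subread 1.5.0-p3 and STAR 2.4.0a. The treatment of reads mapping to several places and the use of strand in counting are not given in the sources used here. Near-identical and antisense genes therefore cannot be told apart.

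Genes were kept by filterByExpr of edgeR 4.0.16, which left 18062, and TMM factors were computed on them. The main test was limma 3.58.1 in R 4.3.3, with a trended prior, on log2(normalised reads + 1), a pseudocount of 1, adjusted by Benjamini-Hochberg over all genes tested. Alternatives were RLE factors, scaling by total reads, the authors' size factors, a pseudocount of 5, CPM of at least 1 in 3 libraries as the filter, no filter at all, the edgeR quasi-likelihood test (5340 genes called) and DESeq2 1.42.0 on recovered reads, the replicate block, sex as a covariate, subtraction of the level of 1822 olfactory and vomeronasal genes, and libraries left out. TMM factors from all genes and leaving out cKO MED1 replicates 1 and 4 were added after seeing the data. The fit was tested on simulated data.

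Stem-loops and 150-base windows were read from GENCODE M21 transcripts and promoters from RefSeq. Windows were compared in the direction of the transcript, so antisense genes did not count against uniqueness. Positions were matched by symbol for 44203 features (94.1%). The rule for named genes took all H1 genes, in each other class the 4 highest per kb and the 3 smallest adjusted p among those called, the 5 genes known to give polyadenylated transcripts, and from each other list up to 4 with the smallest adjusted p. The histone genes and all lists were chosen with earlier results of these data known.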

Additional observations from a re-analysis of the deposited data

How the results depend on the processing

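The 25 histone genes called lower became 61 under scaling by total reads, 50 with TMM factors from all genes, 49 with the authors' size factors, 57 without a filter, 7 with the filter of CPM 1 in 3 libraries, 9 with the replicate block, 0 with sex as a covariate, and 10 both without cKO MED1 replicates 3 and 4 and without replicates 1 and 4. Leaving out 1 library gave 4 to 43. Calls in the higher direction were 0 except for 1 without cKO MED1 replicates 1 and 4. Of all genes, 5065 were called, against 228 with sex as a covariate, 2145 without cKO MED1 replicates 3 and 4, 3375 without replicates 1 and 4, and 1556 to 6126 with 1 library left out. Of the list genes 59 were called, against 1 with sex as a covariate, 30 without cKO MED1 replicates 3 and 4, and 25 to 60 with 1 library left out. With sex as a covariate, the genotype difference rested on cKO MED1 replicate 3 alone, as given above.

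Of 1215 values of 58 named genes under these alternatives, 964 kept direction and side of the threshold, 183 lost the call, 49 gained one and 19 changed sign. Without cKO MED1 replicates 1 and 4 the sign changed for Hist1h1c (0.054), Hist1h1d (0.34), Hist1h2bb (0.15), Hist1h4f (0.016), Hist2h2aa2 (0.043) and Hist2h2bb (0.036). Hist1h1d was also positive with sex as a covariate (0.36), without cKO MED1 replicate 1 (0.024) or 4 (0.026) and with the replicate block (0.0033), and ranged from -0.29 to 0.026 with 1 library left out. With sex as a covariate Hist1h2bb was at 0.13 and Hist2h2bb at 0.14. All values with sex as a covariate set cKO MED1 replicate 3 alone against wild type. Scaling by total reads turned Hist2h2be (-0.0091), H2afv (-0.040), Pou2af1 (-0.073) and Pou2f2 (-0.17), and Pou2f2 was at -0.083 with TMM factors from all genes and without a filter and at -0.059 with the authors' factors. The cause was not tested.

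The replicate block left 9 histone genes lower, all among the 25, with a median of -0.40. The labels do not pair the libraries, and deviations of same-numbered libraries correlated at 0.51, -0.23 and 0.16, so the libraries share only a number, and cKO MED1 replicate 4 has no partner. The restriction to genes with exons unique in the genome was not run, since no genome sequence was used here, and uniqueness among transcripts stands in its place. The 3 genes with hardly any reads, Hist2h2aa1, Hist2h3c1 and Hist1h2aa, could not be tested, and no difference was detectable at this depth for Hist1h1t.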
